A study of Mus musculus with 6 samples.

Results

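The heat shock proteins and cochaperones followed here are Hspa1a, Hspa1b, Hspa8, Hspa5, Hsp90aa1, Hsp90ab1, Hspb1, Hsph1, Dnajb1 and Hspd1, 10 of the 14971 named genes that could be tested on arrays of endothelial cells sorted from mouse small intestine. The genes were chosen by name, and all 19 probes whose RefSeq accession maps to them were used. Of the 10 genes, 4 were lower in lymphatic endothelial cells (LECs) than in blood vascular endothelial cells (VECs). They were the HSP70 cochaperone Dnajb1 (2.45-fold), the endoplasmic reticulum chaperone Hspa5 (1.77-fold), the small heat shock protein Hspb1 (1.60-fold) and the constitutive HSP70 gene Hspa8 (1.59-fold). Hspa1b, an inducible HSP70 gene, was 1.49-fold higher in LECs, while its neighbor and near-copy Hspa1a did not pass the test and had a difference of the opposite sign. These counts are to be read against an array on which 66.9% of the named genes passed the test, 34.9% as higher and 32% as lower in LECs.

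Heat shock proteins are molecular chaperones: they hold unfolded proteins, help them to fold, and hand those that cannot be rescued to degradation. HSP70 proteins bind and release clients in cycles of ATP hydrolysis that DNAJ cochaperones start and nucleotide exchange factors end, HSP90 proteins act later on clients such as kinases and steroid receptors, and small heat shock proteins hold aggregating proteins without ATP. Heat shock factors switch on the inducible genes when proteins misfold, which heat, oxidants and the enzymatic digestion of tissue can all bring about.

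VECs were sorted as CD45- CD31+ CD90- cells and LECs as CD45- CD31+ CD90+ cells from digests of small intestine. The tissue had been held at body temperature with DTT, a reducing agent, then with EDTA and then with collagenase. The cells of both groups came from female mice that the labels give no treatment, strain, age or altered allele for, and they were sorted straight into lysis reagent. There were 3 arrays of VECs, numbered 2, 3 and 4, and 3 of LECs, numbered 6, 7 and 8. LECs were identified by title and source name, because the free-text description attached to them speaks of VECs. Whether a group's samples stem from different animals is not stated, so p-values measure the spread between these samples, which may be technical.

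The labels held against marker genes: all 8 lymphatic markers were higher in LECs, among them Lyve1 and Prox1, and all 8 blood vascular markers, among them Flt1 and Plvap, were lower. The lymphatic markers include Thy1, the gene of CD90, on which the groups were sorted, so it is no independent sign of lymphatic identity. All member probes were well above background on all 6 arrays and none was saturated. Values are log2 signals minus the 75th percentile of their array, called log2 units here, and a difference is the LEC mean minus the VEC mean. The 75th percentile lay between 333 and 441 intensity units, and all arrays shared 1 slide, with the VEC arrays and LEC 6 in row 1 and LEC 7 and 8 in row 2. The array VEC 4 stood apart from VEC 2 and VEC 3 in these genes. It lay 0.79 log2 units above their mean for Hsph1 and 0.55 above it for Hspd1, but 0.46 below it for Hspa1a and 0.44 below it for Hspa1b. Where leaving out VEC 4 changed a call on a member, or moved its difference by over 1.5 times, the value without it is given too.

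**Figure D1:**
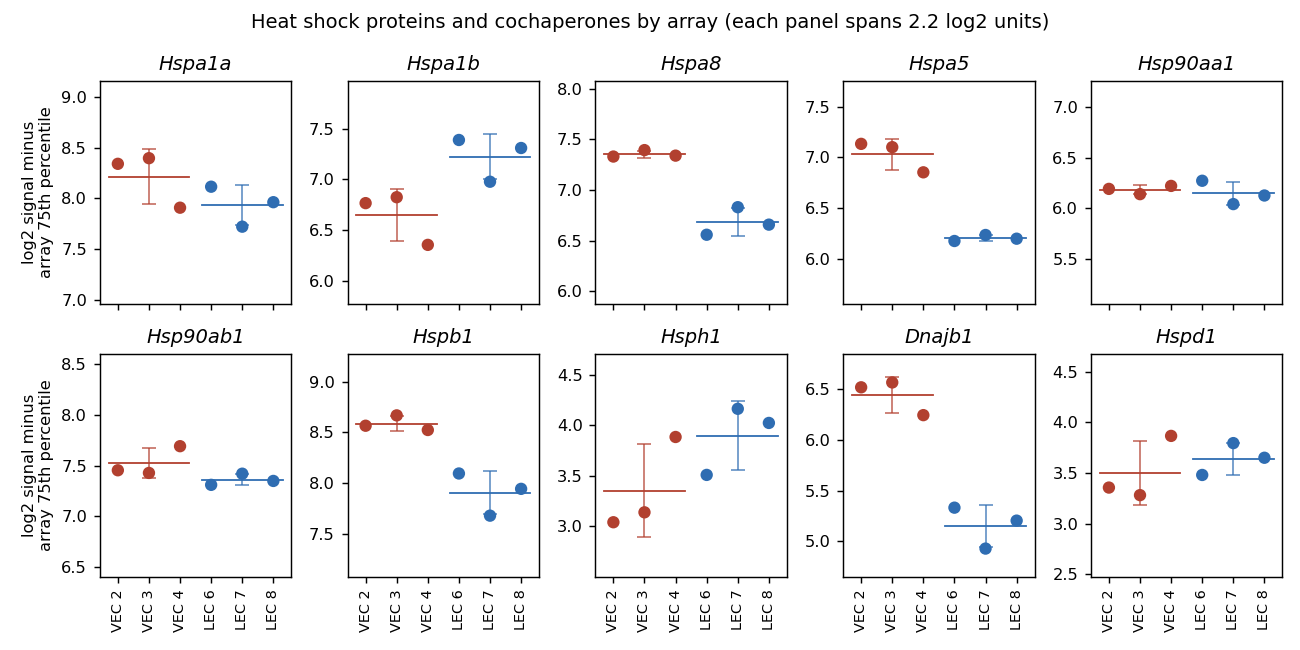
Log2 signal minus the array's 75th percentile for the probe that represents each of the 10 genes, on the 3 VEC arrays (red) and the 3 LEC arrays (blue). Lines are group means, error bars the SD over 3 arrays, and every panel spans the same height; the groups lie apart for Hspa8, Hspa5, Hspb1, Dnajb1 and Hspa1b, and by a narrow gap for Hsp90ab1.

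Hspa1a and Hspa1b encode nearly the same inducible HSP70 protein and lie side by side on chromosome 17. Hspa1a gave 8.34, 8.40 and 7.91 log2 units in VEC samples 2, 3 and 4 against 8.12, 7.72 and 7.96 in LEC samples 6, 7 and 8. The groups overlapped, with VEC 4 below LEC 6 and LEC 8. The difference was -0.28 ± 0.17 (SE, 95% interval -0.69 to 0.12), and limma's adjusted p was 0.183. Without VEC 4 it was -0.44 with an adjusted p of 0.0363, so whether Hspa1a passed as lower in LECs rested on that array. Hspa1b gave 6.77, 6.82 and 6.35 in the VECs and 7.39, 6.98 and 7.31 in the LECs. Here every LEC array lay above every VEC array. The difference was 0.58 ± 0.17 (SE, 95% interval 0.17 to 0.99), and limma's adjusted p was 0.0243. The difference was 0.43 without VEC 4 (adjusted p = 0.0476). The gene did not pass without LEC 6 (0.50, adjusted p = 0.0742) or without LEC 8 (0.54, adjusted p = 0.0730).

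The pair moved together from array to array inside each group. In log2 units, Hspa1a deviated from its group mean by 0.13, 0.18 and -0.31 in the VECs and by 0.18, -0.21 and 0.03 in the LECs. Hspa1b deviated by 0.12, 0.18 and -0.29 and by 0.16, -0.25 and 0.08 on the same arrays. This was not particular to the pair: Dnajb1 deviated by 0.08, 0.12 and -0.20 and by 0.18, -0.23 and 0.05. Taken within an array, the Hspa1b signal minus the Hspa1a signal was -1.58, -1.57 and -1.56 in VECs and -0.73, -0.74 and -0.65 in LECs. The level of such a difference has no meaning, since probes bind unequally, but its change of 0.86 between the groups does not depend on a constant subtracted from each array. It describes how unequally the pair of probes changed on these arrays, not which of them did. The exact two-sided permutation p was 0.1, the smallest that 3 against 3 arrays allow, and 0.225 after adjustment over the 9 members compared with Hspa1a. This comparison was chosen after the values had been seen. The probe sequences were not used here, so how far each probe also binds the transcript of the near-copy was not tested.

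The promoters of the pair are shown because they are almost the same while the probes differed. RefSeq windows of 300 bases, 250 before and 50 from the start on, were matched for 7 of the 10 genes (Hspa1a, Hspa1b, Hspa5, Hspb1, Hsph1, Dnajb1 and Hspd1). Those of Hspa1a and Hspa1b were identical in 296 of 300 aligned bases (98.7%). The 250 bases before each start are printed 5′ to 3′, with capitals marking a heat shock element, searched on both strands as GAANNTTC or TTCNNGAA, the binding letters of heat shock factors in 2 facing units. Each window of the pair held the element once, from -104 to -97 relative to the start.
Hspa1a (GRCm38.p6, chr17:34972157-34972406, minus strand): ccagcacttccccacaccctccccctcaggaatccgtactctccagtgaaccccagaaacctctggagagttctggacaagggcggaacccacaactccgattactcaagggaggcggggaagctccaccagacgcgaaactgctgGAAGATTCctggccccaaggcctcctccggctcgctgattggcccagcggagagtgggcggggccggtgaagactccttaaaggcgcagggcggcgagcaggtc
Hspa1b (GRCm38.p6, chr17:34959239-34959488, minus strand): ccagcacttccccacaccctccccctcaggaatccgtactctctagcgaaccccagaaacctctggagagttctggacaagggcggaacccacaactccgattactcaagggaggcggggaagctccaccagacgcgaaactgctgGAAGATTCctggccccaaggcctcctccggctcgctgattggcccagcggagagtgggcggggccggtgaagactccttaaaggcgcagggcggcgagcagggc
Hsph1, Dnajb1 and Hspd1 have 2 windows each, and a gene was counted if either held the motif, for the members and for all 27025 gene symbols alike. Such an element was found for 5 of the 7 genes (Hspa1a, Hspa1b, Hspb1, Hsph1 and Hspd1) and for 17.0% of all genes (15.1% of all windows). The nearly identical windows of Hspa1a and Hspa1b were each counted, here and for the other motifs, so the 7 genes are not independent. The stricter form with 3 alternating units, which contains the shorter one by construction, was found for Hsph1 and Hspd1 and for 0.662% of all genes. A match is a run of letters, not evidence of binding.
The letters TATAAA were found for 0 of the 7 genes (15.7% of all genes), GGGCGG, a GC box, for 7 of 7 (38.2% of all), and CCAAT for 6 of 7 (41.1% of all), in the case of Dnajb1 and Hspd1 in only 1 of their windows. Only those exact letters were searched. Variants such as tatataag in the window of Hspa5 were missed, so the count of 0 does not mean that TATA boxes are absent.

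Hspa8 encodes the constitutive HSP70 of the cytosol, which also strips clathrin coats from vesicles. Its representing probe gave 7.33, 7.39 and 7.34 log2 units in the VECs and 6.56, 6.83 and 6.66 in the LECs. The VEC arrays lay within a narrow band and all LEC arrays lay below it. The difference was -0.67 ± 0.09 (SE), a signal 1.59-fold lower in LECs (limma's adjusted p = 0.000859). The other 3 probes of Hspa8 differed by -0.75, -0.73 and -0.70, all past the threshold. In bulk samples such as these, fewer cells with a transcript and less of it per cell cannot be told apart.

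Hspa5 encodes BiP, the HSP70 protein of the endoplasmic reticulum, which binds nascent secretory proteins and holds the sensors of the unfolded protein response inactive. Its representing probe gave 7.13, 7.10 and 6.85 log2 units in the VECs and 6.17, 6.23 and 6.20 in the LECs. The LEC arrays agreed within a narrow range, all of it below the VECs. The difference was -0.83 ± 0.09 (SE), or 1.77-fold lower in LECs (limma's adjusted p = 0.000463). The 2 other probes gave -1.02 and -1.01, with adjusted p-values of 4.69e-05 and 5.19e-05. The promoter of Hspa5 is shown because it carries the element of the unfolded protein response. In it, capitals mark the endoplasmic reticulum stress element, a CCAAT box and the letters CCACG with 9 bases between them, from -65 to -47.
Hspa5 (GRCm38.p6, chr2:34771840-34772089, plus strand): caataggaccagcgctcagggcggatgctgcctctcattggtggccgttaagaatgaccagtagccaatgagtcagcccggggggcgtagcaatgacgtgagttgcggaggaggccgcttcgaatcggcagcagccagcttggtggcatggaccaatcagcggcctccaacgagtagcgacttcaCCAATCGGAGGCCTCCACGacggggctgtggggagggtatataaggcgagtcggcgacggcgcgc
This element, which contains a CCAAT box by construction, was found for 1 of the 7 genes and for 0.137% of all genes. The window of Hspa5 held no heat shock element of the form searched.

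Hspb1, the small heat shock protein also called HSP25 in mice, binds aggregating proteins and actin. Its only probe gave 8.56, 8.67 and 8.52 log2 units in the VECs and 8.09, 7.68 and 7.94 in the LECs. The groups did not overlap. The difference was -0.68 ± 0.12 (SE), or 1.60-fold lower in LECs (limma's adjusted p = 0.00317). Within an array, Hspb1 minus Hspa1a was 0.22, 0.27 and 0.61 in VECs and -0.02, -0.04 and -0.02 in LECs, again without overlap (exact two-sided permutation p = 0.1). The promoter of Hspb1 is shown beside those of the HSP70 pair because it held 2 separate heat shock elements, from -117 to -110 and from -97 to -90, in capitals.
Hspb1 (GRCm38.p6, chr5:135887669-135887918, plus strand): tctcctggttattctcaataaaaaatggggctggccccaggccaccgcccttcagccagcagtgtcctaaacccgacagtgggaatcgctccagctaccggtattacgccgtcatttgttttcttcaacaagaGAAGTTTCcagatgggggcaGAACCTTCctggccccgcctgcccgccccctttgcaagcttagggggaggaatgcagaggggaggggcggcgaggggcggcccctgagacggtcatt

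Dnajb1 encodes HSP40, the DNAJ cochaperone that delivers unfolded clients to HSP70 and starts its ATPase. It had the largest difference of the 10 genes. Its signal was 6.52, 6.57 and 6.24 log2 units in the VECs and 5.33, 4.93 and 5.20 in the LECs. No LEC array came near a VEC array. The difference was -1.29 ± 0.14 (SE, 95% interval -1.63 to -0.95), or 2.45-fold lower in LECs (limma's adjusted p = 0.000404). Within an array, Dnajb1 minus Hspa1a was -1.82, -1.83 and -1.66 in VECs and -2.78, -2.79 and -2.76 in LECs (exact two-sided permutation p = 0.1). On these arrays, Dnajb1 and Hspa1b thus differed in opposite directions relative to Hspa1a, by -1.01 and 0.86 log2 units. Of the 9 members compared with Hspa1a in this way, 4 did not overlap between the groups (Hspa1b, Hspa5, Hspb1 and Dnajb1), while 55.5% of all other named genes did not overlap after the same subtraction.

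**Figure D2:**
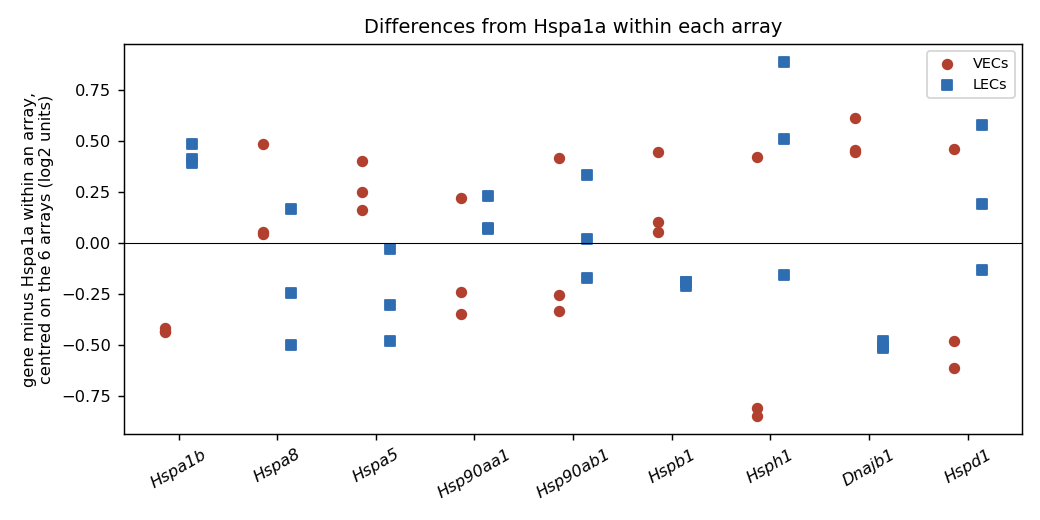
Signal of each gene minus that of Hspa1a on the same array, centered on the mean of the 6 arrays, in log2 units, for VECs (red circles) and LECs (blue squares). Hspa1b lies higher and Hspa5, Hspb1 and Dnajb1 lie lower on all LEC arrays; the other 5 genes overlap between the groups.

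Hsp90aa1 and Hsp90ab1 encode the inducible and the constitutive HSP90 of the cytosol. The representing probe of Hsp90aa1 gave 6.19, 6.14 and 6.22 log2 units in the VECs and 6.27, 6.04 and 6.13 in the LECs, with overlap. The difference was -0.04 (95% interval -0.23 to 0.16, adjusted p = 0.701), and its sign turned under 5 alternatives. The other probe of Hsp90aa1 gave 5.03, 5.03 and 5.14 against 4.85, 4.69 and 4.76 and passed as lower in LECs (-0.30, limma's adjusted p = 0.0110). It did not pass with the slide row as a block (-0.22, adjusted p = 0.108), with quantile normalization (-0.22, adjusted p = 0.0532) or without scaling between arrays (-0.08, adjusted p = 0.655). A dependable direction was not obtained for Hsp90aa1. Hsp90ab1 gave 7.45, 7.43 and 7.69 in the VECs and 7.31, 7.42 and 7.35 in the LECs. These groups did not overlap by a narrow margin, yet the difference of -0.16 did not pass (95% interval -0.39 to 0.06, adjusted p = 0.160). Without VEC 4 the difference was -0.08 for Hsp90ab1 and -0.02 for the representing probe of Hsp90aa1.

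Hsph1 encodes HSP110, which acts as a nucleotide exchange factor of HSP70 in the recovery of aggregated proteins. Its representing probe gave 3.04, 3.14 and 3.88 log2 units in the VECs and 3.51, 4.16 and 4.02 in the LECs. VEC 4 lay above LEC 6, and the difference of 0.54 ± 0.28 (SE) did not pass (95% interval -0.13 to 1.22, adjusted p = 0.132). The other 2 probes of Hsph1 passed as higher in LECs, with differences of 0.72 (adjusted p = 0.0301) and 0.87 (adjusted p = 0.00829). The latter probe was the dimmest of all member probes, at intensities of 60.9 to 171. With normexp background correction its difference was 0.57 (limma's adjusted p = 0.00189). Without VEC 4 the representing probe also passed, at 0.81 (adjusted p = 0.0238), so whether it passed rested on that array. The probe with the difference of 0.72 did not pass when any one of VEC 2, VEC 3, LEC 7 or LEC 8 was left out (0.59 to 0.68, adjusted p from 0.0823 to 0.0887). Nor did that probe pass with no filter on dim probes (limma's adjusted p = 0.0710) or with the methods' ANOVA (adjusted p = 0.0805). With the slide row as a block no Hsph1 probe passed: the representing probe fell to 0.15 (adjusted p = 0.739), and the others gave 0.48 (adjusted p = 0.252) and 0.76 (adjusted p = 0.0817).

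Hspd1 encodes HSP60, the chaperonin of the mitochondrial matrix. It gave 3.36, 3.28 and 3.87 log2 units in the VECs and 3.48, 3.80 and 3.65 in the LECs. The highest of the 6 arrays was VEC 4, and the difference of 0.14 did not pass (95% interval -0.29 to 0.57, adjusted p = 0.512). Its other probe gave 0.06 (95% interval -0.33 to 0.45, adjusted p = 0.770). Without VEC 4 the differences were 0.32 (adjusted p = 0.0536) and 0.20 (adjusted p = 0.254), and neither passed. The promoter of Hspd1 is shown because it holds the longest run of heat shock letters among the 7 genes' windows, with 3 overlapping elements from -144 to -127, in capitals. It is the first of 2 windows that RefSeq gives for the gene, and the second held none.
Hspd1 (GRCm38.p6, chr1:55087933-55088182, minus strand): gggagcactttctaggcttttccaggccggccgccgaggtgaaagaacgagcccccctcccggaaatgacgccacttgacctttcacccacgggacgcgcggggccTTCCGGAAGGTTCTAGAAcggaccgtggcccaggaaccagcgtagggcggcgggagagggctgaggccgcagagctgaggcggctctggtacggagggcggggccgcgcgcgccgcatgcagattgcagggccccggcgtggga

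**Figure D3:**
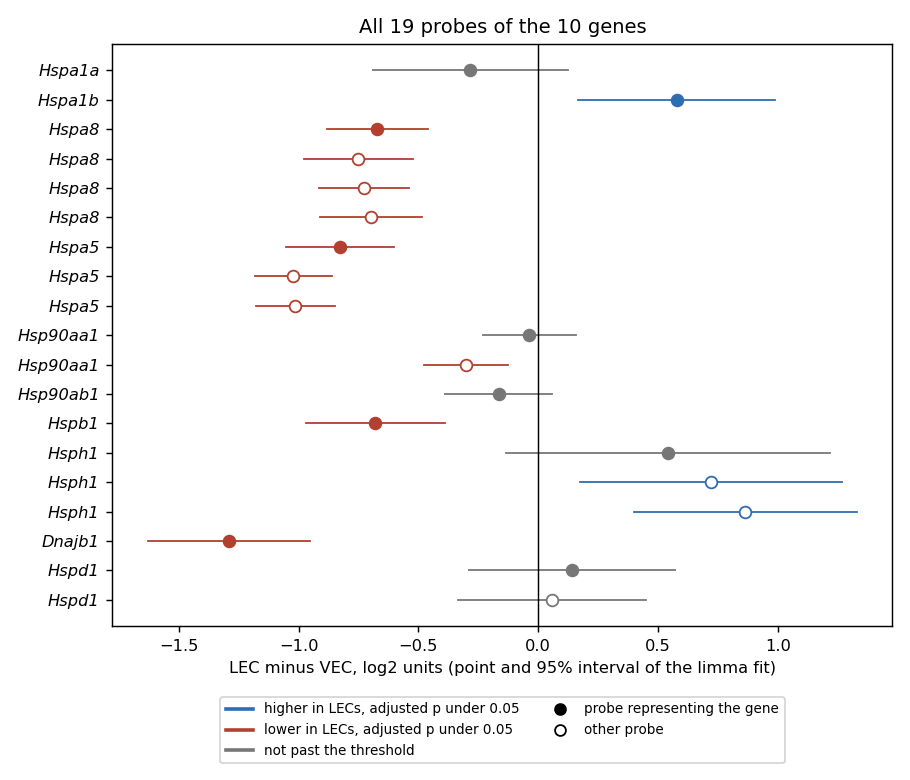
LEC minus VEC difference in log2 units of all 19 probes, with the 95% interval of the limma fit. Filled points are the probes that represent a gene. The probes of Hspa8 and Hspa5 agree among themselves, and those of Hsp90aa1 and Hsph1 fall on both sides of the threshold.

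Over the representing probes of the 10 genes, 1 was higher, 4 were lower and 5 did not pass, and the median difference was -0.22 log2 units, against 0.02 over all named genes. The groups did not overlap for 6 of the 10 genes, while 75% of all named genes tested did not overlap. Over probes, 14 of the 19 did not overlap, against 71.4% of all probes tested, and 13 of the 19 passed the test, against 64%. With the slide row as a block, which in effect sets LEC 6 against the VECs, Hspa8 (-0.80), Hspa5 (-0.85), Hspb1 (-0.49) and Dnajb1 (-1.11) still passed and Hspa1b did not (0.74, adjusted p = 0.0535). Without VEC 4 those 4 genes also passed, at -0.68, -0.92, -0.71 and -1.39. Row 2 held LEC arrays alone, so it gave no value of its own.

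The SD among the arrays of a group was above the median of all named genes for 7 of the 10 members in the VECs and for 8 in the LECs. Hspa8, Hsp90aa1 and Hspb1 in the VECs and Hspa5 and Hsp90ab1 in the LECs lay below it. The median SD within the VECs was 0.16 log2 units over the 10 genes, 0.08 over 137 other genes of the chaperone network and 0.09 over all named genes, and within the LECs it was 0.18, 0.09 and 0.10. Some members moved against each other across the arrays. By their representing probes, Hsph1, Hspd1 and Hsp90ab1 were highest on VEC 4 among the VECs and on LEC 7 among the LECs. Among the LECs, another probe of Hsph1 was highest on LEC 8 (2.81, against 2.76 on LEC 7). The same held for the other probe of Hspd1 (1.32 against 1.31). Hspa1a, Hspa1b, Hspb1 and Dnajb1 were lowest on VEC 4 and LEC 7, and Hspa8, Hspa5 and Hsp90aa1 had neither order. Several cochaperones, picked after their values had been seen, had the pattern of Hsph1. Stip1, which joins HSP70 to HSP90, gave 1.42, 1.42 and 2.43 log2 units in the VECs and 1.44, 2.16 and 1.76 in the LECs. Ahsa2, a relative of the HSP90 ATPase activator, gave 1.70, 1.77 and 2.65 and then 1.77, 2.78 and 2.31. Neither differed between the groups past the threshold (0.03 and 0.25). VEC 4 also exceeded the mean of VEC 2 and 3 by 1.25 for Hspa4l, 0.69 for Chordc1, 0.63 for St13, 0.58 for Fkbp4 and 0.57 for Ahsa1, while it lay 0.35 below for Bag3, 0.42 below for Ppp1r15a and 0.39 below for Atf4. Across the 137 network genes, VEC 4 was the highest VEC array for 47.4%, against 37.3% of all named genes. What set VEC 4 and LEC 7 apart was not tested.

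**Figure D4:**
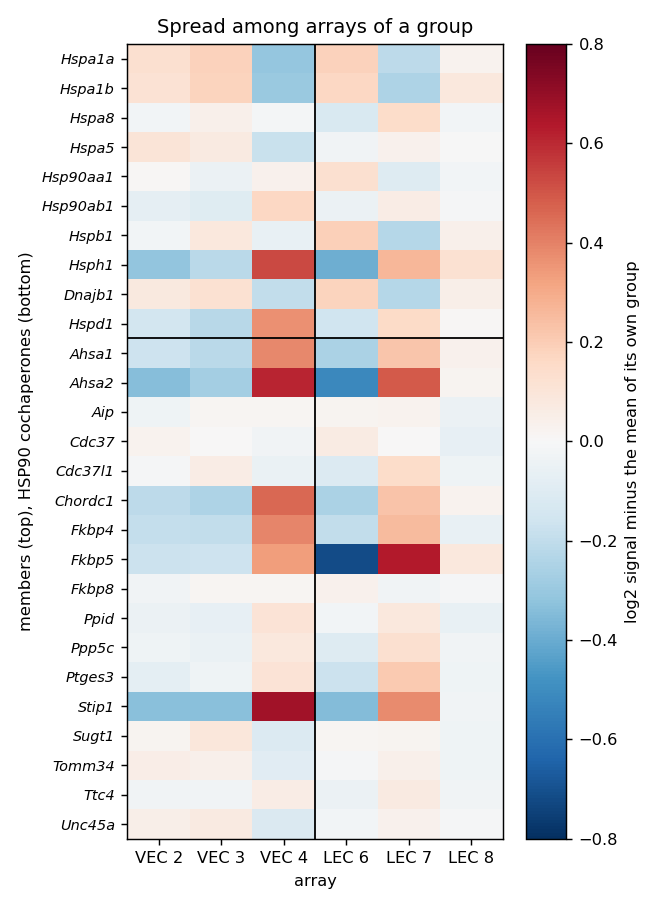
Log2 signal minus the mean of the array's own group for the 10 members (above the line) and the 17 HSP90 cochaperones tested (below it), with 1 column per array. Hsph1, Hspd1, Stip1, Ahsa1, Ahsa2, Chordc1, Fkbp4 and Fkbp5 are high on VEC 4 and LEC 7, while Hspa1a, Hspa1b, Hspb1 and Dnajb1 are low there.

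The rest of the chaperone network was followed in 10 lists with 137 tested genes, of which 56 passed as higher in LECs, 25 passed as lower and 56 missed the threshold, with a median difference of 0.12 log2 units. Over all named genes tested, 34.9% were higher and 32% lower, with a median of 0.02. The counts of each list here and below are to be read against those shares, and no list was tested as a set. Without VEC 4 the counts were 59 and 26. The other HSP70 and HSP110 genes went both ways, with 4 of 9 higher and 3 lower. Hspa12a, a distant HSP70 relative, gave -3.74, -3.82 and -4.17 log2 units in the VECs and 3.83, 3.56 and 3.76 in the LECs, a 198-fold difference. Its VEC intensities of 27.1, 23.5 and 20.9 lay near the lowest counted as above background there (12.1, 14.2 and 13.8). The size of that fold is therefore uncertain. Hspa4l, an HSP110 relative of Hsph1, was 8.61-fold higher in LECs, at 0.11, 0.08 and 1.34 against 3.36, 3.80 and 3.68. Hspa13 (0.75) and mitochondrial Hspa9 (0.34) were also higher. Hspa2, best known from sperm development, was lower (-1.61), as were Hspa12b (-0.55) and Hspa4 (-0.55). Hspa14 (0.11) and Hyou1 (0.19) did not pass, though their other probes reached -0.52 and -0.23, and Hspa1l was not tested. Of the other HSP90 genes, mitochondrial Trap1 was higher (0.41) and Hsp90b1 of the endoplasmic reticulum did not pass (0.21, adjusted p = 0.0593).

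Among the transcription factors of the response, Hsf1, the main activator of the inducible genes, did not pass (-0.07, 95% interval -0.28 to 0.15). Hsf2 (0.77), Hsf4 (0.62) and the HSF1-binding protein gene Hsbp1 (0.56) were higher in LECs. Hsf4 was dim, at intensities of 17.0 to 25.4 in the VECs and 31.9 to 47.9 in the LECs. Hsf5 was at least 1.33-fold lower, since no LEC array measured it well above background. Its VEC intensities of 23.8, 24.4 and 16.1 lay near the lowest counted as above background there (12.1, 14.2 and 13.8), so that call is uncertain. Of the other small heat shock proteins, 2 of 8 were higher and 2 lower. Cryab, the αB-crystallin that pairs with Hspb1, was 3.42-fold higher in LECs, opposite in sign to Hspb1 itself, with -0.56, -0.62 and -0.38 log2 units in the VECs and 1.25, 1.48 and 1.03 in the LECs. Hspb11 was also higher (0.73), and Hspb6 (-0.60) and Hspb9 (-0.56) were lower. The values of Hspb2 (0.10), Hspb7 (-0.41), Hspb8 (-0.31) and Cryaa (-0.77) did not pass, and Hspb3 was not tested.

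Of 39 other DNAJ genes tested, 20 passed as higher in LECs, 6 passed as lower and 13 missed the threshold, with a median of 0.23 log2 units. Dnajb3 was at least 23.7-fold higher, as no VEC array measured it well above background. Dnajb4, a close relative of Dnajb1, was higher (0.96). Dnaja1, an HSP70 partner of the cytosol, was lower (-0.75), though its other probes reached 0.35, and Dnajc8 was lower too (-0.71). Of 12 nucleotide exchange factors and inhibitors, 5 were higher, among them Sil1 (0.96), which serves Hspa5, and Hspbp1 (0.52). Bag2 (-1.77) and Bag3 (-0.41), the latter a heat-inducible partner of small heat shock proteins, were the 2 that were lower. Of 17 HSP90 cochaperones, 5 were higher, led by Ttc4 (1.71) and Ppp5c (0.74), and 2 were lower, Fkbp4 (-0.69) and Tomm34 (-0.22). The chaperonins and prefoldins had 4 higher, led by Pfdn1 (0.52) and Vbp1 (0.46), 1 lower, Cct2 (-0.28), and 10 not past the threshold.

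The endoplasmic reticulum list went both ways. Of its 20 genes, 6 were higher in LECs: the lectin chaperones Calr (0.52) and Canx (0.41), the disulfide isomerases Pdia3 (0.39) and Pdia4 (0.28), the degradation factor Sel1l (0.32) and Trib3 (1.78), a stress-induced pseudokinase. The 8 that were lower were Ppp1r15a (-1.78), Atf4 (-1.10), Herpud1 (-0.93), Xbp1 (-0.87), Ddit3 (-0.76), Sdf2l1 (-0.72), Ern1 (-0.54) and Atf6 (-0.40). The list held sensors of the unfolded protein response on either side of the threshold, with Ern1 and Atf6 lower and Eif2ak3 not past it (0.01). Manf (-0.14), Creld2 (0.12), Edem1 (-0.19), Pdia6 (-0.16) and P4hb (0.07) did not pass. Ppp1r15a, which restores translation after stress, gave 7.98, 8.04 and 7.59 in the VECs and 6.30, 5.91 and 6.08 in the LECs. Of 10 genes of mitochondrial protein quality control, 6 were higher and 0 lower, with 4 not past the threshold and a median of 0.27. The largest were Clpx (0.93), a protease subunit, and Atf5 (0.86), a transcription factor of the mitochondrial stress response, while the mitochondrial member Hspd1 did not pass. Afg3l2 (0.70), Clpp (0.48), Timm44 (0.38) and Lonp1 (0.17) were also higher, and Clpb (0.04), Htra2 (0.04), Spg7 (0.16) and Yme1l1 (-0.04) did not pass.

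**Figure D5:**
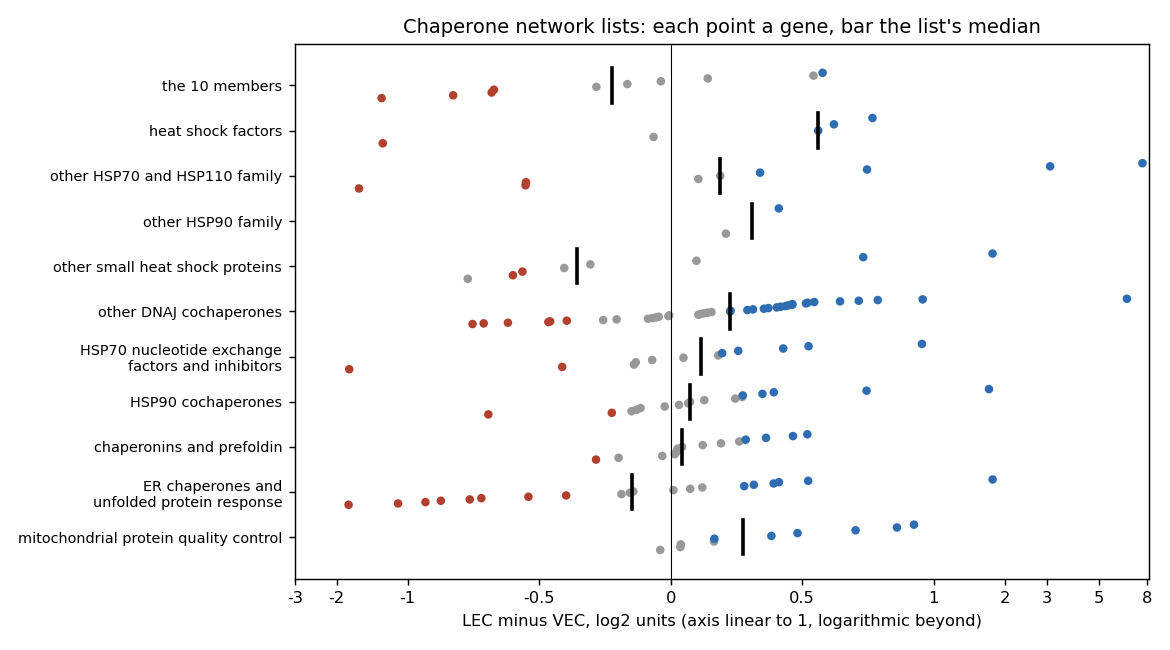
LEC minus VEC difference in log2 units for the 10 members and the genes of 10 chaperone network lists; blue points were higher in LECs, red points lower, gray points did not pass, and black bars are medians. The axis is linear up to 1 and logarithmic beyond. The members have a median of -0.22 and the endoplasmic reticulum list one of -0.15, while the DNAJ and mitochondrial lists lie to the right at 0.23 and 0.27. The median over all named genes tested, not drawn, was 0.02.

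Immediate early genes, which tissue digestion is known to induce, were lower in LECs as a rule. Of 20 such genes, 19 were lower in LECs and 1, Klf6 (0.34), was higher, with a median of -1.86 log2 units. Ier3 (-3.33) and Egr2 (-3.16) were the lowest. Their summed scaled signal was 2526 to 3054 in the VECs and 816 to 934 in the LECs. VEC 4 had the lowest sum of the VEC arrays and LEC 7 the lowest of the LEC arrays, the arrays on which Hspa1a, Hspa1b, Hspb1 and Dnajb1 were lowest as well. The lower members Hspa8 (6.83) and Hspa5 (6.23) were instead highest of the LECs on LEC 7. Among the VECs, however, Hspa5 was also lowest on VEC 4 (6.85), while Hspa8 was lowest on VEC 2 (7.33). The part of the immediate early genes in the results on the members was not tested. Oxidative stress genes had 3 higher in LECs, with Nqo1 (2.31) and Mt1 (0.65) in front, and 3 lower, with Txnrd1 (-1.52) and Mt2 (-0.76) in front, and summed signals of 102 to 129 and 101 to 111.

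Markers of other cell types also differed between the groups, and their part in the results was not tested. The summed scaled signal of 9 smooth muscle and pericyte genes was 46.9 to 57.3 in the VECs and 34.6 to 45.1 in the LECs, with 3 genes lower, among them Acta2, and 0 higher. That of 10 leukocyte genes was 79.8 to 85.5 and 69.4 to 74.3, with 3 higher and 4 lower, and the defining marker Ptprc did not reach the level for testing. For 7 enteric glia and neuron genes it was 13.2 to 13.7 and 4.55 to 5.84, but 4 of the 7 were higher in LECs and 2 were lower, with a median of 1.12. S100b (3.96) was among the higher and Uchl1 (-2.76) among the lower. Epithelial genes summed to 1.999 to 4.26 and 2.22 to 2.74 and fibroblast genes to 0.909 to 1.56 and 2.19 to 2.97, with Epcam and Pdgfra below the level for testing. Of these, 1 epithelial gene was higher and 2 were lower, and 3 fibroblast genes were higher. Erythroid genes summed to 14.3 to 35.3 and 0.378 to 2.01, with 3 lower, and 5 of 6 pan-endothelial genes were lower in LECs, among them Pecam1.

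The genes whose pattern over the 6 arrays was nearest to a member were found among the 13303 genes that every array measured well above background, by the mean absolute distance between centered profiles. Nearest to Hspa1a were Bloc1s3 (0.036 log2 units), Sox4 (0.041) and Gm14207 (0.047). Sox4 was 2.25, 2.24 and 1.65 in the VECs and 1.93, 1.52 and 1.79 in the LECs, with its low values on VEC 4 and LEC 7 as for Hspa1a. Nearest to Hspa8 were Klhl21 (0.015), Gm11937 (0.018) and Tpm1 (0.019). With 6 arrays in 2 groups, many genes lie close to any profile, and likeness here says nothing of shared function.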

How the data were processed

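Cy3-labeled RNA of VECs and LECs (3 samples each) was hybridized to one-color Agilent mouse arrays. The authors deposited, for each spot, the intensity that Agilent Feature Extraction 12.0.3.1 gave after its own background subtraction, not scaled between arrays, and flags for spots above background. A second deposited table holds log2 values; 100% of its probes equaled the log2 intensity minus 1 constant per array within 0.01, and it served as an alternative.

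From the intensities, log2 values were taken, outlier spots set missing, spots of one probe averaged and each array's 75th percentile subtracted. The test covered probes that all 3 arrays of either group measured well above background (33776 of 56605), with limma (version 3.58.1, R version 4.3.3; lmFit, eBayes, two-sided, all 6 arrays, no covariate), with Benjamini-Hochberg adjustment over all of them and a threshold of 0.05. The fit was tested on simulated data. The brightest tested probe over all arrays represented its gene. Probes were named through RefSeq accessions. Where no array of a group measured a probe well above background, its fold is a bound. Promoters came from RefSeq (GRCm38.p6) and were searched with Python 3.11.15 and aligned with Biopython 1.88. The number of arrays limits the precision.

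The members, gene lists and tests were chosen with earlier results of these data known. Named were all members with every probe, up to 2 genes per direction and list, every gene of network lists whose members numbered at most 10, and 3 nearest genes for Hspa1a and Hspa8; the comparison within arrays, the further unfolded protein response genes and the array spread of the network genes were picked after their values had been seen. Alternatives covered the background correction, scaling, filters, outlier spots, variance model, the methods' ANOVA, the deposited table, the slide row, the representing probe, the motif and each array left out. The groups share no replicate number, so no paired analysis was run. Whether a VEC and a LEC sample came from the same animals is not known here. A withheld marker gene is not reported here.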

Additional observations from a re-analysis of the deposited data

How the results depend on the processing

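The counts and calls below refer to 18 alternatives per gene. Hspa8, Hspa5, Hspb1 and Dnajb1 stayed lower and past the threshold in all 18, with ranges of -0.80 to -0.45, -0.95 to -0.60, -0.78 to -0.45 and -1.39 to -1.06 log2 units. Hspa1b kept its sign (0.43 to 0.80) but missed the threshold with no filter on dim probes (adjusted p = 0.0615), the methods' ANOVA (0.0655), the slide row as a block (0.0535) and without LEC 6 or LEC 8 (up to 0.0742). The number of members higher in LECs was thus 1 in the main fit, 0 with no filter, with the ANOVA and with the slide row, 2 without scaling and with the mean of a gene's probes, and 0 to 2 with 1 array left out; members lower were 4 to 5. Network genes lower in LECs were 25 and fell to 14 without scaling between arrays. That setting moved the median of all probes from -0.03 to 0.20 and the share of calls that were higher from 48.8% to 65.1%, so differences there are read relative to it. Under it Hsp90aa1 (0.19) and Hsp90ab1 (0.0620) turned sign. Hsp90aa1 also turned with normexp (0.0151), quantile normalization (0.14), the slide row as a block (0.0878) and without LEC 7 (0.0150; -0.10 to 0.0150 over arrays left out). Hspd1 turned to -0.0207 with the slide row, and its other probe to -0.18; with arrays left out that probe ranged from -0.02 to 0.20, below 0 without VEC 2 (-0.0247) and LEC 8 (-0.0054). With 3 alternating units in place of 2, heat shock elements were in the windows of 2 members in place of 5. The causes were not tested. Signal over background limited no representing probe of a member, though the difference of the dimmest Hsph1 probe moved with the background correction. The number of arrays limits all.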
